A study of Mus musculus with 8 samples.

Results

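The genes described here encode chromatin modifiers and remodellers. They are the protein-coding genes whose mm10 RefSeq symbol starts with Kmt2, Kmt5, Kdm, Setd, Smarc, Arid, Chd followed by a digit, Brd, Hdac or Ncor, together with Ep300 and Crebbp, and they had to hold at least 1 measured m6A-eCLIP site in their span. Of 94 annotated symbols that met the naming rule, 61 had a site and 33 did not, among 6531 genes with a named site in all. Their spans held 356 of 33774 sites. Of these, 352 sites in 59 genes lay in no other protein-coding span and were used for every gene value below. The remaining 4 sites were shared with a neighbouring protein-coding gene, and Kdm1a and Setdb2 had only such shared sites. Brd3os entered through its symbol, is annotated as protein-coding, and is not known as a chromatin protein.

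Antibody-selected RNA (IP) and the RNA before selection (Input) were sequenced from αTC1-6, a clonal mouse line of glucagon-producing pancreatic alpha cells. In m6A-eCLIP, ultraviolet light joins an antibody against N6-methyladenosine to the RNA it binds, and the table gives read counts at sites that are nearly all 1 base long. Control cells were transfected with a scramble siRNA, labelled SCR, and knockdown cells with an siRNA that targets Mettl14, labelled M14KD. The 8 libraries make 4 groups of 2: replicate numbers 1 and 2 are SCR, 3 and 4 are M14KD, and each number has an IP and an Input library. Nothing in the labels says that the libraries of a group are separate cultures; p-values then measure the spread between these samples alone, which may be technical.

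Summed site counts were 10207383 to 10918559 in the IP libraries and 3438530 to 3637740 in the Input libraries, so Input values have the larger counting error. Library values below are CPM (counts relative to the library's total) after TMM scaling, called normalised CPM, summed over the sites of a gene; they compare libraries, not genes. The targeted gene was lower in both knockdown libraries of each kind. Mettl14, with 2 sites, stood at 23 and 16.1 normalised CPM in SCR Input and at 11.8 and 8.42 in M14KD Input, a log2 change of -0.96 (SE 0.27, adjusted p 0.261). In IP it was 5.81 and 6.22 in SCR and 3.26 and 2.02 in M14KD (log2 change -1.17, SE 0.24, adjusted p 0.157). Of 10 alpha cell markers 8 had a site, and their summed Input level was 105802 to 106423 normalised CPM in SCR and 120785 to 121525 in M14KD (IP 23311 to 23856 and 27291 to 27565). Of 8 beta cell markers only G6pc2 had a site, at no more than 1.84 normalised CPM, and none of the listed delta, PP or non-endocrine markers had a site. The part of this marker difference in the results below was not tested.

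DNA in the nucleus is wrapped around histones, and the proteins of these families write, remove or read chemical marks on histone tails or move nucleosomes with energy from ATP. Most Kmt2, Kmt5 and Setd proteins are lysine methyltransferases, and Ep300 and Crebbp are acetyltransferases. Kdm proteins are demethylases and Hdac proteins are deacetylases, which work in part through corepressor complexes. Brd proteins bind acetylated lysines, many Smarc and several Arid proteins are subunits of SWI/SNF remodelling complexes, and Chd proteins are remodelling ATPases. The m6A mark is placed on messenger RNA by the Mettl3 and Mettl14 methyltransferase complex and is recognised by proteins that affect splicing, decay and translation of the transcript.

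Most of these transcripts carried several sites. The median was 4 sites per gene, against 3 over all genes, and 15 of the 59 genes (25.4%, against 13.7% of all genes) had 10 or more and together held 205 of the 352 sites (58.2%). Arid1a had 19 sites, Arid1b and Brd2 had 18 each, Kmt2d and Setd2 16 each, Kmt2e 14, Brd1 and Kdm2a 13 each, and Ep300, Kdm5c and Setd5 12 each. A lone site was found in 13 genes, among them Crebbp, Hdac3, Hdac11 and Setd6. The genes were also long, with a median annotated span of 59892 bases against 24262 over all genes with a named site. Every annotated Kmt2 and Kmt5 gene had a site (5 of 5 and 3 of 3), whereas 4 of 11 Hdac and 6 of 13 Smarc symbols did.

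Sites often lay close together within these transcripts, though a near neighbour was less frequent than over all sites. Blocks of sites were counted for these genes alone, not over all genes. When sites over 1000 bases apart were assigned to separate blocks, the 352 sites fell into 112 blocks, and in 12 of the 15 genes with 10 or more sites a block held over 50% of the gene's sites. In Arid1a, which encodes a DNA-binding subunit of the BAF form of SWI/SNF, 17 of 19 sites lay in 1853 bases at chr4:133680097-133681949 (mm10), from 96.2% to 98.6% of the way from the gene's start to its end. In its paralogue Arid1b, 15 of 18 sites lay in 1292 bases at chr17:5342116-5343407, from 98.4% to 98.8% of the span. Ep300 had 8 of its 12 sites from 95.7% to 98.5%. Brd2, a BET-family reader of acetylated histones, had 14 of 18 sites from 29.8% to 38.2% of the span. In Brd1, a scaffold of a histone acetyltransferase complex, 12 of 13 sites lay in 506 bases from 8.87% to 9.94%. Setd2, which writes the methyl mark of transcribed gene bodies, had blocks of 8, 5 and 3 sites at 17.4% to 21.7%, 47.9% to 48.1% and 71.7% to 71.9% of the span. Another site within 100 bases was found for 64.5% of these sites and for 72.6% of all sites, and neighbouring sites may share reads.

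Relative to all genes, fewer of the sites lay near the annotated gene end. Strand was known for 42 of the 59 genes, with 251 sites. Of these, 23 sites (9.16%) were within 1000 bases of the end, against 27.5% of 25633 sites in protein-coding genes, and 94 (37.5%) were within 3000 bases, against 59.5%. These positions are relative to the annotated gene span alone; whether a site is in an exon, intron or untranslated region was not analysed here.

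The first comparison was IP over Input within each genotype, which gives how strongly the antibody selected a transcript's sites relative to the other transcripts in the table. In SCR, 25 of 57 tested chromatin genes had a higher IP than Input level, 11 a lower one, and 21 were not called at an adjusted p of 0.05 by edgeR. Over all 6379 genes tested, 69.9% were called, 35.2% higher and 34.7% lower, so the share called higher was 43.9% here and the share called lower 19.3%. The median log2 ratio was 0.33 against 0.04 over all genes. In M14KD, 26 were higher (45.6%, against 35.5%) and 13 lower (22.8%, against 35.6%), of 71% called over all genes, with a median of 0.45 against 0.02. Ratios in SCR ran from -1.79 (Hdac11) to 1.68 (Setd6), an 11-fold span, and the 2 genotypes gave the same direction for every gene called in both: 24 higher, 11 lower and 0 opposite. Another 4 were called in M14KD alone and 1 in SCR alone; these differences in call were not differences by the test between genotypes given below.

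The zero of this ratio depends on the scaling. TMM assumes that most genes do not differ between IP and Input. With column totals in its place the median over all genes moved to 0.75 in SCR and 0.73 in M14KD, and 43 chromatin genes were called higher and 6 lower in each genotype (87.8% of calls higher, against 69.4% and 66.7% with TMM; over all genes 79% and 78.2%, against 50.3% and 49.9%). Relative to the median of all genes, the chromatin genes' median was then 1.05 against 0.75 in SCR and 1.16 against 0.73 in M14KD. Keeping 1 site per 100 bases before summing gave 20 genes higher and 13 lower of 58 in SCR (56.9% called, against 67.6% of all genes). The median was 0.18 against 0.05 over all genes. Of all 6387 genes, 2161 were then higher and 2154 lower in SCR, so the share called higher was close to that of all genes. In M14KD the same thinning gave 24 higher and 11 lower (60.3%, against 68.5%), with a median of 0.32 against 0.04. Of all 6387 genes, 2198 were higher and 2176 lower in M14KD.

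**Figure D1:**
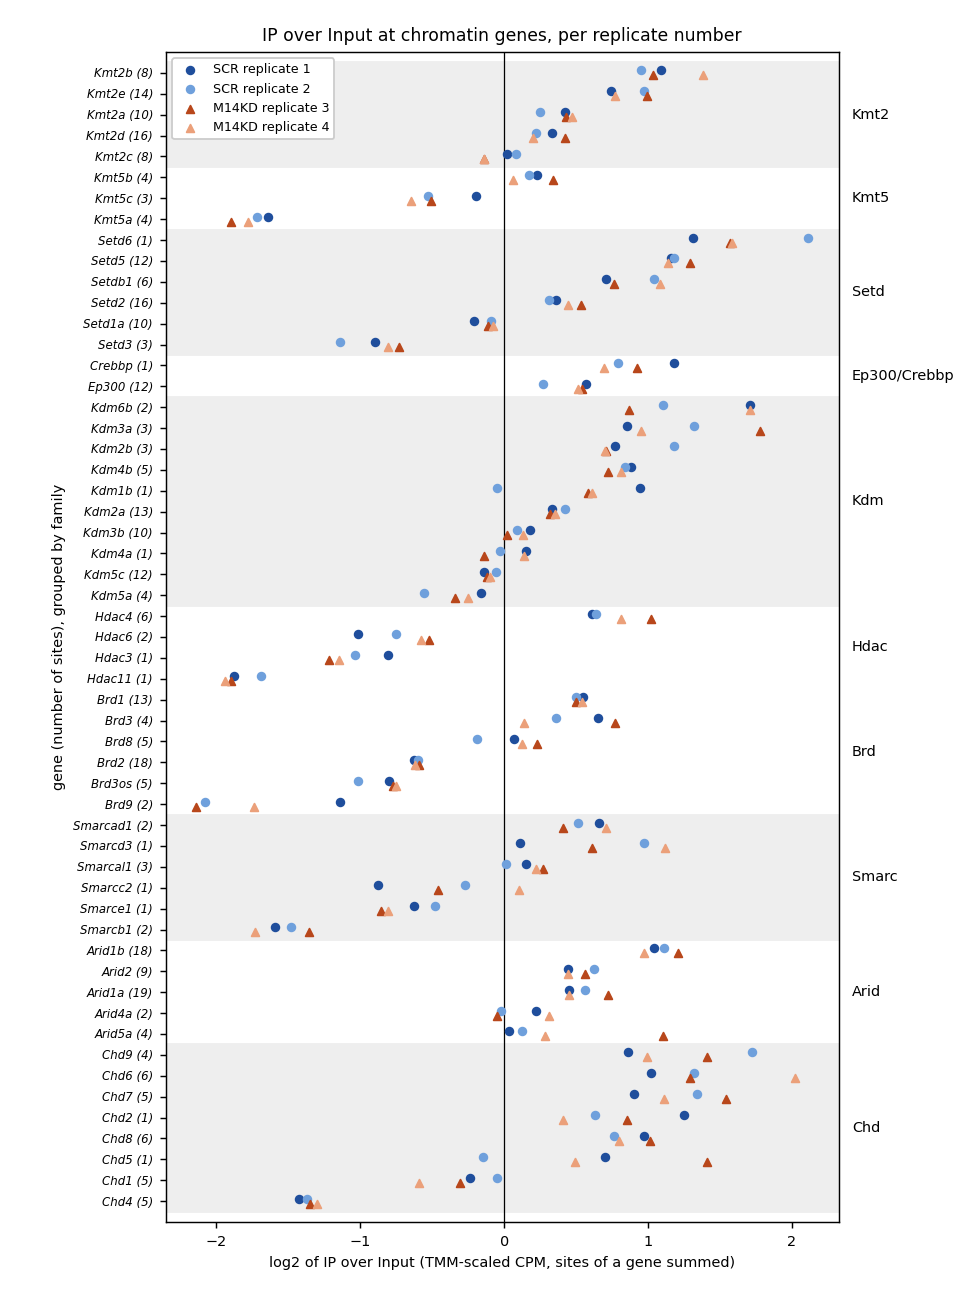
Each row is a chromatin gene with its number of sites, and the horizontal axis is the log2 ratio of IP over Input (TMM-scaled CPM) for SCR replicates 1 and 2 (circles) and M14KD replicates 3 and 4 (triangles), grouped by family. Genes of 1 family lie on both sides of 0, as in Hdac from Hdac4 on the right to Hdac11 on the left, while the 4 replicate numbers of a gene mostly lie close together.

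For the counts by family that follow, 35.2% of all genes were called higher and 34.7% lower in SCR, and 51.5% had ratios above 0. Of all sites, 34% were called higher and 33.4% lower. No family was tested as a set. In the Kmt2 family, all 5 genes had SCR ratios above 0 and 4 were called higher. Kmt2b, which methylates histone H3 at promoters, had the largest, with per-replicate log2 ratios of 1.09 and 0.95 in SCR and 1.03 and 1.38 in M14KD (fitted 1.01, SE 0.15, adjusted p 2.01e-05 in SCR). Kmt2e followed at 0.84 (SE 0.15), and Kmt2c, at 0.05 (SE 0.17), was not called. Kmt5a, which places a single methyl group on histone H4 and acts in cell division, lay on the other side. In SCR, IP stood at 79.4 and 79 normalised CPM against 248 and 260 in Input, and in M14KD at 74 and 74.3 against 276 and 255. IP was therefore below Input in each of the 4 replicate numbers, and the fitted ratio was -1.68 (SE 0.09, adjusted p 1.97e-10). All 4 Kmt5a sites were called lower, from -1.90 to -1.24.

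The Setd family lay on both sides of 0. Setd6, a methyltransferase with non-histone substrates, had the highest ratio of all 57 genes in SCR, from a lone site (in M14KD Chd6, at 1.61, was above Setd6, at 1.57): 19.6 and 22.1 normalised CPM in SCR IP against 7.91 and 5.11 in SCR Input, and 22.9 and 23 against 7.73 and 7.66 in M14KD (log2 1.68, SE 0.22, adjusted p 5.27e-06). Setd5, a SET-domain protein, was higher in IP at 12 sites together, with 389 and 343 in SCR IP against 175 and 151 in Input, and 378 and 353 against 154 and 160 in M14KD (log2 1.17, SE 0.10, adjusted p 3.09e-08). Setdb1, which silences repeats by methylating histone H3, had a ratio of 0.86 (SE 0.13). Setd3, known as the methyltransferase of actin, was lower in IP, at 47.8 and 47.1 against 89.5 and 104 in SCR and 47.2 and 50.9 against 78 and 89.2 in M14KD (log2 -1.03, SE 0.11, adjusted p 8.57e-07). Of the acetyltransferases, Ep300 was called higher at 0.42 (SE 0.11), and Crebbp, with 1.08 and 1.46 normalised CPM in SCR Input, stood at 0.97 with an SE of 0.47 and was not called.

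Of the 10 Kdm genes tested, 5 were called higher and 0 lower in SCR. Kdm6b, which removes the polycomb mark, had the highest Kdm ratio in SCR, 1.38 (SE 0.34, adjusted p 0.00206), at low depth: 7.08 and 7.07 normalised CPM in SCR IP against 2.16 and 3.28 in SCR Input; without SCR replicate 1 it was 1.10 (SE 0.48) and not called. Kdm3a, a demethylase induced by low oxygen, reached 1.04 (SE 0.20) in SCR and, at 1.34 (SE 0.21), was above Kdm6b (1.18) in M14KD. Kdm2b stood at 0.97 (SE 0.17), Kdm4b at 0.86 (SE 0.12) and Kdm2a at 0.37 (SE 0.09). Kdm5c, an X-linked demethylase, had 12 sites of which 3 were called higher and 8 lower, and its summed ratio was -0.10 (SE 0.09). Kdm5b and Kdm8, with 1 site each, were too low to be tested in any comparison.

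Among the deacetylases, 3 of 4 genes were called lower in SCR (34.7% of all genes were). Hdac11 had the lowest ratio of the 57 genes in SCR (in M14KD Brd9 was lower, at -1.94 against -1.92): 4.1 and 3.84 in SCR IP against 15.1 and 12.4 in Input, and 3.65 and 3.48 against 13.6 and 13.4 in M14KD (log2 -1.79, SE 0.22, adjusted p 2.59e-06). Hdac3, the catalytic subunit of nuclear corepressor complexes, stood at -0.92 (SE 0.15) and Hdac6, a mostly cytoplasmic deacetylase of tubulin, at -0.89 (SE 0.16). With column totals neither was called, and both stayed below 0 (-0.21, adjusted p 0.19, and -0.17, adjusted p 0.312). Hdac4, a class IIa deacetylase that shuttles between nucleus and cytoplasm, was higher instead, at 66.9 and 77.9 in SCR IP against 43.8 and 50 in Input (log2 0.63, SE 0.13, adjusted p 5.91e-04).

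The bromodomain readers lay on both sides of 0. Brd3, a BET-family protein, was called higher at 0.50 (SE 0.13), as was Brd1 at 0.53 (SE 0.09). Brd2, a paralogue of Brd3, was lower, at 396 and 410 in SCR IP against 613 and 621 in Input and 362 and 402 against 543 and 616 in M14KD (log2 -0.61, SE 0.08, adjusted p 6.78e-06); with column totals the ratio was 0.10 and was not called (adjusted p 0.255). Brd9, a subunit of the noncanonical BAF complex, was at -1.62 (SE 0.21, adjusted p 5.19e-06), from 9.46 and 7.14 in SCR IP against 20.8 and 30.3 in Input. Brd3os, whose span adjoins Brd3, was at -0.91 (SE 0.14); it was no longer called with column totals (-0.20, adjusted p 0.204).

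Of the 6 tested Smarc genes, 2 were called lower and 0 higher. Smarcb1, a core subunit of the BAF and PBAF complexes, was lower: 29.8 and 36.3 in SCR IP against 89.8 and 101 in Input, and 29.1 and 30 against 74.7 and 99.9 in M14KD (log2 -1.53, SE 0.14, adjusted p 1.08e-07). Smarce1, another BAF and PBAF subunit with a lone site, was at -0.56 (SE 0.20, adjusted p 0.0205); it became 0.16 (adjusted p 0.459) with column totals and was not called with DESeq2 (-0.57) or without SCR replicate 1 (-0.48) or 2 (-0.63). Both Smarcb1 sites lie just after the annotated start of the gene, as does 1 of the 2 sites of Smarcad1, a remodelling ATPase. These are the 3 of the 352 sites that fell in the window from 250 bases before to 50 bases after an annotated start for which sequence was held (517 sites over all genes did), and they are printed because they let the site be read in its sequence. The sequences are those of RefSeq on GRCm38.p6, the mm10 assembly, 30 bases 5′ to 3′ on the strand of the gene, at chr10:75921565-75921594 (minus strand) and chr6:65042589-65042618 (plus strand); capitals mark the site bases.
Smarcb1: gcaccgagggcggcctgctcgttgcAgaGa
Smarcad1: gggctgcgtgttgcgtcatCactacgcgct
The marked bases are A and G in Smarcb1 and C in Smarcad1. The G and the C are not adenosines, so a marked base need not be a methylated one. The Smarcb1 sites had IP over Input ratios of -1.56 and -1.54. The start site of Smarcad1 had a ratio of -0.15 (SE 0.43), from 30 and 27 counts in SCR IP and 7 and 6 in SCR Input.

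The 5 Arid genes all had ratios above 0, and Arid1b, Arid2 and Arid1a were called higher in SCR. Arid1b was at 218 and 228 in SCR IP against 106 and 106 in Input, and at 198 and 210 against 85.4 and 107 in M14KD (log2 1.07, SE 0.10, adjusted p 1.80e-07). Arid2, which defines the PBAF form of the complex, stood at 0.52 (SE 0.14) and Arid1a at 0.50 (SE 0.10). The Chd family had 5 genes higher and 1 lower of 8. Chd9 was at 1.21 (SE 0.22, adjusted p 1.17e-04), Chd6 at 1.15 (SE 0.19), Chd7, mutated in CHARGE syndrome, at 1.08 (SE 0.22), Chd2 at 0.92 (SE 0.30) and Chd8 at 0.86 (SE 0.15). Chd4, the ATPase of the NuRD complex, was lower, at 78.4 and 83.8 in SCR IP against 212 and 217 in Input and at 69.7 and 74.9 against 178 and 184 in M14KD (log2 -1.40, SE 0.09, adjusted p 2.00e-09), with all 5 of its sites called lower.

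Summed ratios covered sites that differed from each other. In SCR, 115 of 348 tested sites were higher in IP (33%, against 34% over 33356 sites) and 85 lower (24.4%, against 33.4%), of 67.4% called over all sites. In M14KD, 120 were higher (34.5%, against 33.8%) and 72 lower (20.7%, against 33.1%), of 66.9% called. A higher and a lower site were both found in 22 of the 46 chromatin genes with at least 2 tested sites (47.8%, against 36.7% over all such genes), in 20 of 35 with at least 4 (57.1%, against 53.5%) and in 11 of 14 with at least 10 (78.6%, against 80%). Within Setd2 the site ratios ran from -2.93 to 1.30, within Chd8 from -2.06 to 2.18, within Setdb1 from -1.64 to 2.28, within Arid1a from -1.75 to 1.74 and within Kmt2d from -1.24 to 2.15.

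The position of a site within the span went with its ratio. The 23 chromatin sites within 1000 bases of the gene end, in 13 genes, had a median ratio of -1.28, and 20 of them were below 0. The 70 tested sites from 1000 to 3000 bases had a median of 0.43 and the 155 farther ones 0.26. Over all protein-coding genes the medians in the same bins were -0.21, 0.19 and 0.13. Sites of 1 gene are not independent, and no test was made of these medians.

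In Arid1a the block near the end held sites from -1.75 to 1.74, and its site with the highest IP count, chr4:133680786, was at 1.74 (SE 0.20), from 424 and 374 counts in SCR IP and 31 and 18 in SCR Input. The lone Arid1a sites at 91.9% and 4.28% of the span were at -0.91 and -1.70. Arid1b differed: none of its 18 sites was called lower and 10 were called higher. Its site nearest the start, at 0.59% of the span, had the highest ratio, 2.49 (SE 0.33). That site had 171 and 160 counts in SCR IP and only 5 and 7 in SCR Input. In Kmt2d, the 4 sites from 56.1% to 57.5% of the span had a median of 1.05, with 2.15 (SE 0.29) at chr15:98849972, whereas the block of 6 sites from 68.8% to 71.3% had a median of 0.13 and the site at 24% was at -1.24. The middle block of Setd2 had all 5 sites called higher, from 0.76 to 1.30, while the first block ranged from -2.93 to 1.16. In Brd2 the 4 sites beyond 72% of the span were all called lower, from -2.21 to -1.04, and 7 of the 14 sites before 40% were lower and 1 higher. Kdm2a had 4 sites at chr19:4319013-4319121 of which 3 were called higher, and 3 sites at chr19:4316301-4317783 of which 2 were called lower.

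**Figure D2:**
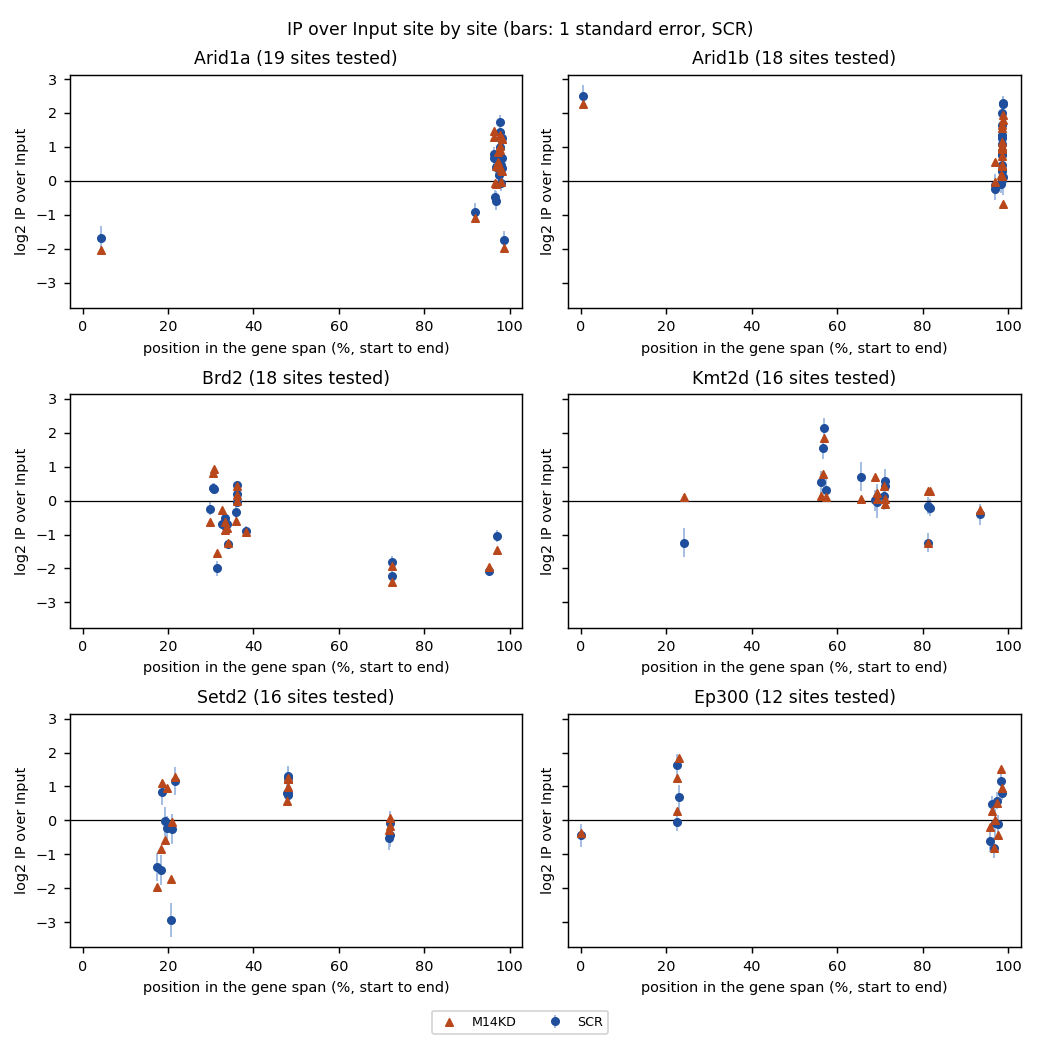
Each panel is a gene, the horizontal axis is the position of a site in percent of the annotated span from start to end, and the vertical axis is the site's log2 ratio of IP over Input in SCR (circles with 1 standard error) and M14KD (triangles). Sites sit in blocks, beyond 96% of the span in Arid1a and Arid1b and before 40% in Brd2, and sites of a block differ in ratio.

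The knockdown was then compared with the control within the IP libraries. None of 57 chromatin genes passed an adjusted p of 0.05 (0 of 6381 genes, 0%, did). At an unadjusted p under 0.05 there were 4 (7.02%, against 14.1% over all genes), all with lower M14KD values (7.02%, against 6.63%). The median log2 change was -0.05 against 0.01 over all genes, and 34 of 57 values were below 0 (59.6%, against 47.6%) and 23 above (40.4%, against 52.4%). Both M14KD libraries lay below both SCR libraries in 16 genes (28.1%, against 23.1%) and above them in 8 (14%, against 23.1%). DESeq2 called 0 chromatin genes, against 0.705% of 6381 genes, and 2 chromatin genes had an unadjusted p under 0.05. Without SCR replicate 1 the median change of the chromatin genes was -0.00.

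The lowest p belonged to Kmt2d, a methyltransferase of enhancers. In IP, SCR stood at 89.6 and 89.7 and M14KD at 68.1 and 75.2, which did not overlap, a log2 change of -0.32 (SE 0.09, adjusted p 0.22). Its Input levels, 71.1 and 77 in SCR and 50.8 and 65.5 in M14KD, did not overlap either (log2 -0.36, SE 0.15, adjusted p 0.435). Of its 16 sites 14 had an IP change below 0 (48.8% of all sites had), and sites of 1 gene are not independent. Kdm4b stood at 63.3 and 59 in SCR IP and 49.7 and 53.6 in M14KD IP (log2 -0.24, SE 0.09, adjusted p 0.314). Arid1a was at 255 and 244 against 217 and 227 (log2 -0.16, SE 0.07, adjusted p 0.354), and Crebbp, at a lone site, at 2.46 and 2.53 against 1.4 and 1.86 (log2 -0.61, SE 0.27, adjusted p 0.355). In each of these genes both M14KD libraries were below both SCR libraries. Crebbp, at an unadjusted p of 0.0506 by edgeR, was not among the 4 genes counted above as under 0.05.

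Setd2 had values in the other direction. It was at 103 and 77.1 in SCR IP and 124 and 93.9 in M14KD IP, groups that overlapped (log2 0.28, SE 0.15, adjusted p 0.436). All 15 tested sites had a change above 0 (51.2% of all sites had), but sites of 1 gene in the same libraries are not independent. Input was at 80.1 and 62 in SCR and 85.8 and 69.3 in M14KD (log2 0.11, SE 0.16, adjusted p 0.843), with 9 of 13 tested sites above 0. The change of IP over Input was 0.15 (SE 0.25). Without M14KD replicate 4, 2 of 58 chromatin genes were called (3.45%, against 2.63% of 6418 genes), among them Setd2, which was higher, and 0 were called at gene level when any other replicate was left out. In each such fit the spread came from the group with 2 libraries alone, and the lone library was assumed to vary like it.

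By family, IP changes were below 0 in all 5 Arid genes (-0.21 to -0.02) and all 4 Hdac genes (-0.15 to -0.10), and above 0 in 5 of 6 Setd genes (-0.02 to 0.28). The other families had both signs: 2 of 5 Kmt2, 1 of 3 Kmt5, 5 of 10 Kdm, 3 of 7 Brd, 3 of 6 Smarc and 4 of 8 Chd genes were above 0. Crebbp and Ep300 were below 0. None of these single genes passed the test, and no family was tested as a set. Over all genes, 47.6% of IP changes were below 0 and 52.4% above.

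**Figure D3:**
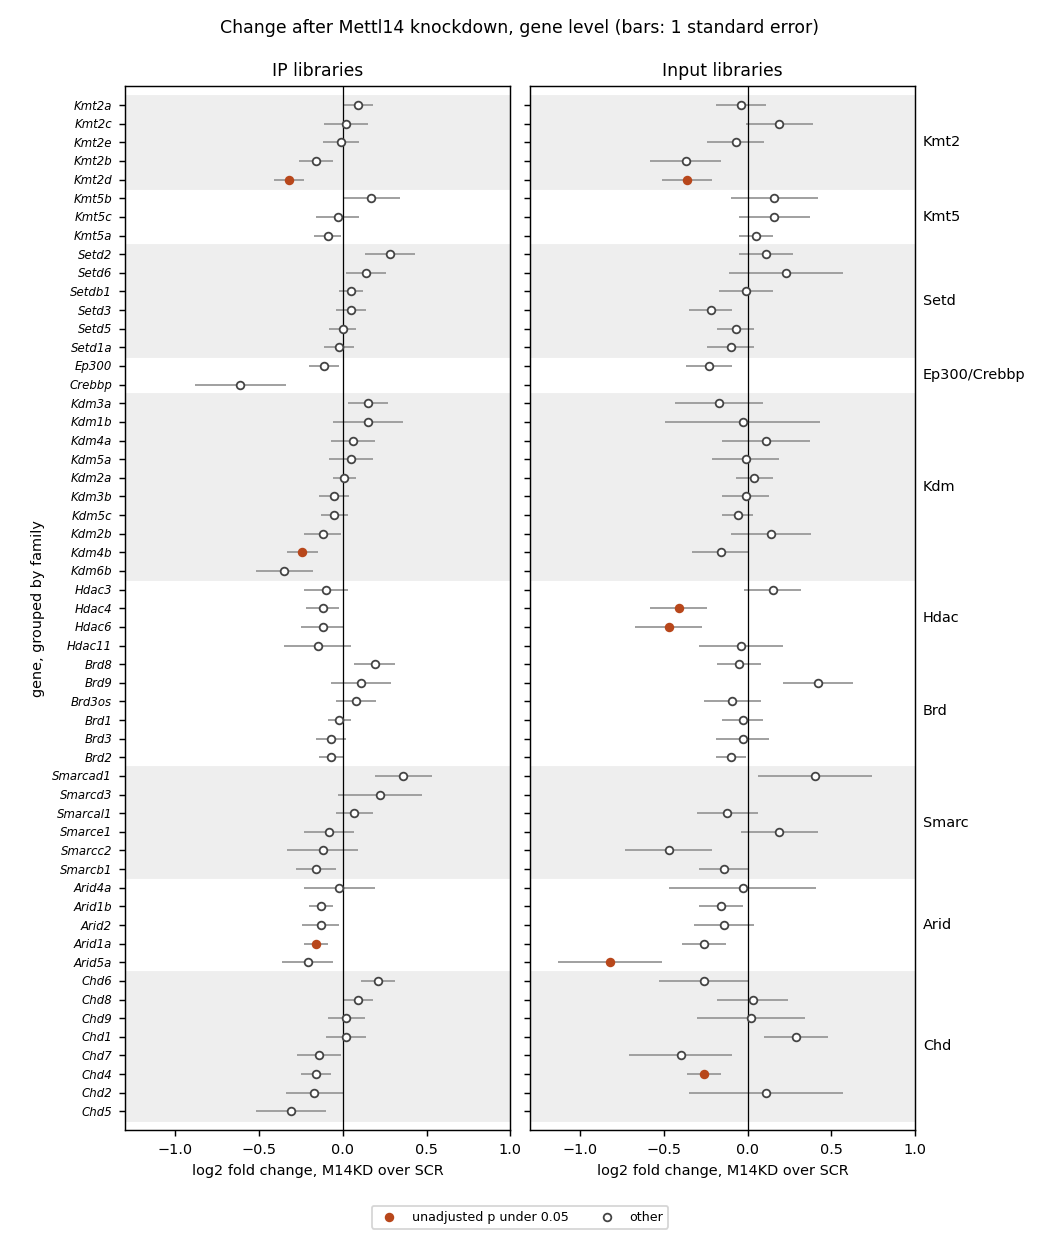
Each row is a chromatin gene and the horizontal axis is the log2 fold change of M14KD over SCR with 1 standard error, in IP (left) and Input (right) libraries; filled points have an unadjusted p under 0.05 and no point passed the adjusted threshold. The filled points of both panels all lie below 0.

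At site level, 1 of 347 tested chromatin sites was called in IP (0.288%, against 0.63% over 33348 sites). With DESeq2 the count was 0 (0.354% over all sites), as it was at 1 site per 100 bases (0.247%). In neither fit did the called site have an adjusted p, so neither could test the call. Without a filter on low counts the call was lost (0.465% of all sites were called). The call was also lost without SCR replicate 2 or without M14KD replicate 3, each of which leaves 1 library in a group. Without SCR replicate 1, which leaves 1 SCR library, 7 of 348 sites were called (2.01%, against 4.25% of 33429 sites), among them sites in Kmt2d, Kmt5b and Setd2.

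Of the chromatin sites, 28 had an unadjusted p under 0.05 in IP (8.07%, against 13.3%), 24 lower (6.92%, against 6.17%) and 4 higher (1.15%, against 7.1%). Of a neighbouring pair of Kmt2d sites with high IP over Input, chr15:98849972 had 196 and 194 IP counts in SCR and 130 and 148 in M14KD (log2 -0.41, SE 0.14, adjusted p 0.175), and chr15:98849995 had 106 and 122 against 66 and 77 (log2 -0.60, SE 0.18, adjusted p 0.13). The start site of Smarcad1 printed above had 30 and 27 IP counts in SCR and 50 and 44 in M14KD (log2 0.79, SE 0.25, adjusted p 0.152). The Setd2 site at chr9:110551215 had 74 and 57 against 102 and 86 (log2 0.59, SE 0.19, adjusted p 0.161), and the Kdm2a site at chr19:4316864 had 177 and 151 against 120 and 107 (log2 -0.46, SE 0.15, adjusted p 0.165). The last Arid1b site, chr17:5343407, had only 29 and 23 against 11 and 13 counts (log2 -1.03, SE 0.34, adjusted p 0.176).

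The Input libraries show the RNA at the same sites before selection; in them fewer cells with a transcript and less of it per cell cannot be told apart. None of 53 chromatin genes passed the adjusted threshold (0 of 5826 genes, 0%). At an unadjusted p under 0.05 there were 6 (11.3%, against 10.2%), all lower (11.3%, against 5.36%), and 35 of 53 values were below 0 (66%, against 50.6%). DESeq2 called 0 chromatin genes, against 0.395% of 5826 genes, and 0 chromatin genes had an unadjusted p under 0.05. The median change was -0.04 against -0.00 over all genes. Both M14KD libraries lay below both SCR libraries in 12 genes (22.6%, against 19.9%) and above them in 4 (7.55%, against 21.1%).

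Arid5a, an RNA-binding protein that stabilises cytokine messages, had one of the lowest p values in Input. It was at 10.8 and 11.7 in SCR Input and 5.15 and 7.66 in M14KD Input, which did not overlap (log2 -0.82, SE 0.31, adjusted p 0.387), and at 11 and 12.7 against 11 and 9.3 in IP (log2 -0.21, SE 0.15). Chd4 Input levels were 212 and 217 against 178 and 184 (log2 -0.26, SE 0.10, adjusted p 0.398). Hdac4 was at 43.8 and 50 against 31.7 and 39.4 (log2 -0.41, SE 0.17, adjusted p 0.428; -0.25 without M14KD replicate 3) and Hdac6 at 30.9 and 27.4 against 19.5 and 23 (log2 -0.47, SE 0.20, adjusted p 0.433). Brd9 was at 20.8 and 30.3 in SCR and 37.9 and 31 in M14KD, the highest Input change of the set (log2 0.42, SE 0.21, adjusted p 0.517). All 5 Arid genes had Input changes below 0 (-0.82 to -0.03), as did 50.6% of all genes. No chromatin site of 285 was called in Input (28 of 30147 sites, 0.0929%, were), with 11 at an unadjusted p under 0.05 (3.86%, against 8.69%). The lowest p was at the Arid1a site chr4:133680355, with 35 and 38 counts in SCR Input and 16 and 21 in M14KD (log2 -0.92, SE 0.29, adjusted p 0.332).

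**Figure D4:**
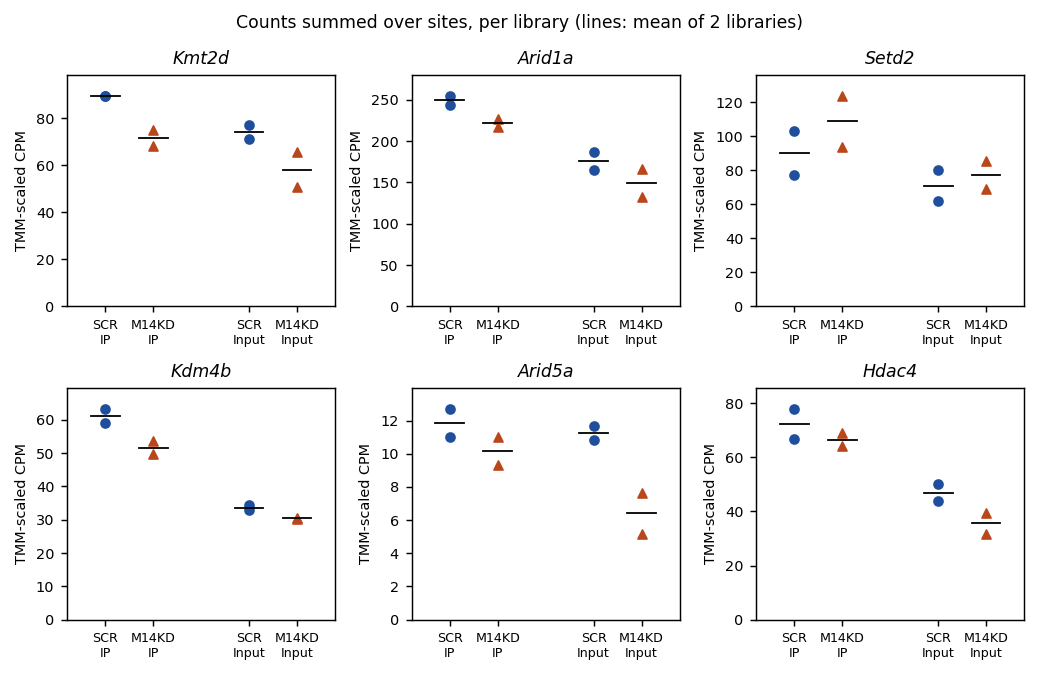
Each panel is a gene, with normalised CPM summed over its sites on the vertical axis (from 0) for the 2 libraries of each group, SCR as circles, M14KD as triangles and the group mean as a line. In Kmt2d and Kdm4b both M14KD libraries lie below both SCR libraries in IP and in Input, in Arid1a they do so in IP and in Hdac4 in Input. In Arid5a they do so in Input and, by less than the printed digits, in IP; the Setd2 groups overlap.

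The third comparison was whether IP over Input itself differed between M14KD and SCR, which sets the antibody-selected change against the change of the RNA. None of 57 chromatin genes was called and 0 had an unadjusted p under 0.05 (2.63% of 6379 genes had, and 0%, or 0 genes, were called); DESeq2 also gave 0 and 0. The median difference was 0.01 against 0.00 over all genes, with a median SE of 0.22. For Kmt2d the IP and Input changes were alike in size, and the difference was 0.03 (SE 0.17). The lowest p values belonged to Arid5a (0.59, SE 0.34), Chd6 (0.45, SE 0.28), Setd3 (0.26, SE 0.16), Hdac6 (0.34, SE 0.23) and Hdac4 (0.28, SE 0.20), each with an adjusted p of 0.999. Leaving out 1 replicate number moved these differences by over 1.5 times: Arid5a was at 0.20 without M14KD replicate 3 and 1.02 without M14KD replicate 4, Chd6 at 0.87 and 0.13 in the same order and 0.29 without SCR replicate 1, Setd3 at 0.14 without SCR replicate 2, Hdac6 at 0.20 without SCR replicate 1 and Hdac4 at 0.18 without M14KD replicate 3. Per replicate, Chd6 had ratios of 1.02 and 1.32 in SCR against 1.29 and 2.02 in M14KD, and Hdac4 had 0.61 and 0.64 against 1.02 and 0.81. At site level 0 of 348 chromatin sites were called (0 of 33356, 0%) and 9 had an unadjusted p under 0.05 (2.59%, against 3.72%). The site with the lowest p, chr7:127786162 in Setd1a, had 163 and 177 IP counts in SCR and 128 and 130 in M14KD with Input counts of 18 and 22 against 28 and 28 (difference -0.88, SE 0.32, adjusted p 1).

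Other genes of chromatin were read from a list of 136 regulators outside the naming rule, of which 92 had a site. In IP, 0 of 91 were called (0 of 6381 over all genes). At an unadjusted p under 0.05, 2 were higher and 5 lower (7.48% and 6.63% of all genes were). The median change was 0.02, and 40 values were below 0 and 51 above (47.6% and 52.4% of all genes). In Input, 0 of 88 were called (0 of 5826 over all genes), and the median was -0.03. At an unadjusted p under 0.05, 1 was higher and 6 lower (4.82% and 5.36% of all genes were). The 3 lowest p values in IP were those of Gatad2a, a NuRD subunit (log2 -0.32, SE 0.08, adjusted p 0.22), Baz1a, an ISWI partner (0.35, SE 0.13, adjusted p 0.307) and Ehmt2, a histone H3 methyltransferase (-0.26, SE 0.10, adjusted p 0.316). In Input they were Srcap, a remodeller of histone variants (-0.46, SE 0.16, adjusted p 0.324), Uhrf2 (0.52, SE 0.19, adjusted p 0.377) and the coactivator Ncoa2 (-0.34, SE 0.13, adjusted p 0.396). IP over Input in SCR was called higher in 30 and lower in 31 of 90, with a median of 0.01. Over all genes 35.2% were called higher and 34.7% lower, with a median of 0.04. For scale, Gcg, the glucagon gene, with 23 sites, had an IP over Input ratio of -2.69 (SE 0.06) in SCR and an IP change of 0.29 (SE 0.06, adjusted p 0.192).

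The 4 shared sites were tested as sites. The 2 sites in the spans of Kdm1a and Luzp1 had IP over Input ratios of 0.10 (adjusted p 0.517) and 0.60 (adjusted p 2.13e-04) in SCR and IP changes of -0.01 and -0.05. The site in Setdb2 was at -1.08 (adjusted p 0.0296) and the shared site of Kdm2a at -0.36 (adjusted p 0.22), with IP changes of -0.00 and 0.04.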

How the data were processed

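The deposited values are raw read counts at each site, as whole numbers with no normalization, in 1 table of 8 libraries. The submitters' processing notes name cutadapt, STAR, UMI-tools and mm10, with no role or order. Tool versions, how sites were found, the counting window and whether reads were collapsed to unique molecules were not given in the sources used here. Sites were named by mm10 RefSeq spans (1 protein-coding gene or, failing that, 1 gene); 1272 sites in several protein-coding spans and 560 in no gene stayed unnamed. Counts were summed per gene. No per-sample column was left aside (0 unused).

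The counts went into edgeR 4.0.16 in R 4.3.3 (filterByExpr, TMM, quasi-likelihood F-test, Benjamini-Hochberg over all features tested, threshold 0.05), within IP, within Input, and as contrasts of a model of all 8 libraries. SE is the absolute log2 change over the square root of F. Alternatives were DESeq2 1.42.0, DESeq2 size factors or column totals in edgeR, a filter at a mean count of 20 or none, 1 site per 100 bases, 1 model of all 8 libraries, leaving out each replicate, and a block for the replicate number. Same-numbered IP and Input libraries deviated together (correlation of deviations over 6379 genes 0.28 in SCR and 0.20 in M14KD), so the numbers were taken to pair IP with Input. Replicates differed by more than sampling noise (chi-square over degrees of freedom 2.65 to 8.92). The tests were also run on simulated counts with 200 changed features, in libraries drawn independently. That setting does not cover libraries that deviate together. It also does not cover IP over Input, where 69.9% of all genes were called in SCR and 71% in M14KD.

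Genes named are those with an adjusted p of at most 0.05 (the 6 largest per direction where more than 12 passed), or the 5 lowest p where fewer than 5 passed, those with the most sites overall and per family, and the extremes of IP over Input; at site level, called sites, the lowest p values and the sites with most IP counts. Family ranges, blocks of sites, start windows and Setd2's IP change were described after values were seen. Members and lists were chosen with earlier results of these data known. Values of some single genes and sites that meet this rule are not reported here and are left out of the figures; counts and medians include them.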

Additional observations from a re-analysis of the deposited data

How the results depend on the processing

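Each comparison was recomputed under the alternatives named with the processing. The count of chromatin genes called in IP was 0 throughout except when a replicate was left out (range 0 to 2, with 2, Setd2 among them, without M14KD replicate 4). For IP sites it was 0 with DESeq2, 0 with no filter and 0 with 1 site per 100 bases, and 0 to 7 when a replicate was left out. With 1 site per 100 bases, 121 sites in SCR and 116 in M14KD of 221 were called for IP over Input (54.8% and 52.5%, against 65.7% and 65.2% of 17816 sites), since fewer sites were tested. Column totals reversed Brd2 (0.10) and Smarce1 (0.16) in SCR. Among the named genes and sites, the alternatives that kept every replicate, column totals included, left 404 values with the same sign and call. In 5 other values the sign stayed and the call was lost, and in 2 the sign reversed. The 404 include many values not called in the main fit, which counted as the same by staying uncalled. That number therefore does not measure how stable the calls are. Leaving out a replicate moved some calls in both directions. With the replicate block, 40 chromatin genes in each genotype (27 higher and 13 lower; 70.2%, against 74.4% of all genes in SCR and 74.9% in M14KD) and 213 and 201 sites (61.2% and 57.8%, against 70.2% and 69.6% of all sites) were called for IP over Input, and 0 genes and sites for the difference between genotypes; the pairing changed no call of these counts by over 1.5 times. With 2 libraries per group and median SEs of 0.11 in IP, 0.18 in Input and 0.22 in the difference, small changes could not be called. A change equal at all sites would not show in any of these scalings.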
